A study of Mus musculus with 3 samples.

Results

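The genes described are the semaphorins, plexins, neuropilins, ephrins, Eph receptors, Slits, Robo receptors, netrins, Unc5 receptors and Dcc, together with the Slitrk genes, as they appear in peak lists of Smad3 and JMJD3 from mouse neural stem cells. They were taken by symbol, from the gene that each peak names as closest, and 74 of the 16428 genes named in either list matched. Of these, 73 were named in the Smad3 list, 68 in the JMJD3 list and 67 in both. Coding genes of the same families that no peak named were Epha6, Robo4, Sema4g, Sema5a and Slitrk4. Unc50, a Golgi protein, and Unc5cl, a cytoplasmic protein with a death domain, matched by name and are not netrin receptors.

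The lists come from ChIP-seq, the sequencing of DNA that an antibody pulls down with its protein, which maps where that protein sits on chromatin, with 1 library for Smad3 and 1 for JMJD3. The cells were cultured from the cerebral cortex of wild-type mouse embryos at E12.5 (the embryonic day), grown with EGF at 20 ng/ml and FGF at 10 ng/ml, and both libraries were made after 30 minutes of TGFb at 5 ng/ml. The labels name an input library without antibody, not analysed here, and no untreated cells, so no response to TGFb can be measured. Without replicates no test over samples was possible, the files give no reads or scores per peak, and the depth is unknown.

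Smad3 is the transcription factor that carries signals from TGF-beta and activin receptors into the nucleus. JMJD3 (encoded by Kdm6b) is an enzyme that removes a Polycomb-associated repressive mark from histone H3. Axon guidance molecules steer growing axons and migrating cells. Secreted semaphorins act through neuropilins and plexins, ephrins on one cell act on Eph receptors of the next, Slits repel through Robo receptors, and netrins attract through Dcc or repel through Unc5. In the developing cortex the same molecules also act on progenitors and on newborn neurons as they leave the ventricular zone.

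A promoter peak was one whose midpoint lay within 1000 bp of the transcription start site (TSS) of the gene it named, and any other peak naming the gene was distal. Peaks of 1 list at most 10 bp apart were joined into a region, and the width of a gene's widest promoter region served as the only measure of extent. Members were named by 911 Smad3 peaks, of which 124 were at promoters, and by 621 JMJD3 peaks, of which 81 were at promoters. In all, the lists held 98086 Smad3 peaks and 63154 JMJD3 peaks. The lists do not distinguish a place occupied in few cells from one occupied weakly in many. As a check on the labelled cell type, all 10 neural stem and progenitor markers (Nes, Sox2, Pax6 and others) had promoter peaks of both proteins. Smad3 promoter peaks were found at 3 of 5 neuronal, 1 of 3 astrocyte, 0 of 2 oligodendrocyte, 0 of 3 microglial and 1 of 3 endothelial markers named in the lists, and JMJD3 promoter peaks at 2, 0, 0, 0 and 1 of them. Over all named genes the shares were 73.1% for Smad3, 57.1% for JMJD3 and 55.1% for both. The marker counts describe binding and not expression.

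The promoters of 6 genes carry the contrasts described here, and the 250 bases before the start of each are shown. Sema4c, Plxna2, Robo1 and Nrp1 had regions of both proteins wider than the median of all genes, Nrp2 had Smad3 alone, and Slit2 was the only member with JMJD3 alone. Capitals mark CAGAC or its reverse complement GTCTG, a core that Smad proteins are known to contact. Sequences are from RefSeq on GRCm38.p6, a later build than the mm9 of the peaks, and are written from 5′ to 3′ on the gene's strand.
Sema4c: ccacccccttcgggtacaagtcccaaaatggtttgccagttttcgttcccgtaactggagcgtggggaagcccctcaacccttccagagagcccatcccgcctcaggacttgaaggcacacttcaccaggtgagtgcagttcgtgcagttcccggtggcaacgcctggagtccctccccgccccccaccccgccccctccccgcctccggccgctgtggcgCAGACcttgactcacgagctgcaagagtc
Plxna2: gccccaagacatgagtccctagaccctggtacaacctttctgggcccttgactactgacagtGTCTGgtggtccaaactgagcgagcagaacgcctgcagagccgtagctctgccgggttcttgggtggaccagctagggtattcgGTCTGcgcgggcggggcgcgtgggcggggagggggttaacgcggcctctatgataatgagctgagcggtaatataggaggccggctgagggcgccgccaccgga
Robo1: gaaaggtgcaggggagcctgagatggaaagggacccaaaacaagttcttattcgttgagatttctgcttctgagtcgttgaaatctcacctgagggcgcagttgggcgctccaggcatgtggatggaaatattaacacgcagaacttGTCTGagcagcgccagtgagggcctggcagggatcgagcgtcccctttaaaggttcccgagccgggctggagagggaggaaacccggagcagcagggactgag
Nrp1: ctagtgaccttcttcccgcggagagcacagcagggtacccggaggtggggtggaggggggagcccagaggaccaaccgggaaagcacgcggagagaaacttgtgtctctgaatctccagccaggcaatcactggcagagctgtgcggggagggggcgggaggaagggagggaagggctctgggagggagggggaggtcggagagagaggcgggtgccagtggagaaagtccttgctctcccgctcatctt
Nrp2: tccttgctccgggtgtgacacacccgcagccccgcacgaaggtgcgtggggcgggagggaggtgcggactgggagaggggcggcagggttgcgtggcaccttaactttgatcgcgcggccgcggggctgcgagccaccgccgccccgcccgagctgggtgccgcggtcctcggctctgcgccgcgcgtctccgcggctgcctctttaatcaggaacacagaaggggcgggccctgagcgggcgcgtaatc
Slit2: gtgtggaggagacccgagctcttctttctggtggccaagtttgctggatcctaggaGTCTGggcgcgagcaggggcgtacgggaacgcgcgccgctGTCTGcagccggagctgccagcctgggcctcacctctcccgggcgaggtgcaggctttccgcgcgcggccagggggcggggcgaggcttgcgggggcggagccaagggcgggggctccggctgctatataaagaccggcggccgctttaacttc
The windows lie at chr1:36558382-36558631 on the minus strand for Sema4c, chr1:194619579-194619828 for Plxna2, chr16:72662899-72663148 for Robo1, chr8:128358823-128359072 for Nrp1, chr1:62703067-62703316 for Nrp2 and chr5:47982905-47983154 for Slit2, the last 5 on the plus strand. The core occurred once in the Sema4c window, with its first base at -29, and once in that of Robo1, at -103. It occurred at -188 and -104 in Plxna2 and at -194 and -154 in Slit2, and these letters were absent from the windows of Nrp1 and Nrp2. Counting both strands, the core was present in 41.3% of 10084 gene windows of this length, so a match describes the sequence and marks no site. Measured by distance from the start, the Smad3 region covered 214 of the 250 bases at Sema4c, all 250 at Plxna2, Robo1, Nrp1 and Nrp2, and 0 at Slit2. The JMJD3 region covered 234 bases at Sema4c, all 250 at Plxna2, Robo1 and Nrp1, 0 at Nrp2 and 232 at Slit2.

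Most guidance genes had Smad3 at the promoter and most of those also had JMJD3, at rates close to those of all genes. Smad3 promoter peaks were found at 57 of 74 members (77.0%), against 73.1% of all genes named in either list. JMJD3 promoter peaks were found at 44 members (59.5%, against 57.1%), and both at 43 (58.1%, against 55.1%). Smad3 alone marked 14 members (18.9%, against 17.9%), JMJD3 alone marked Slit2 (1.35%, against 1.95%), and 16 members (21.6%, against 25%) had neither. Of the 57 members with Smad3, 75.4% also had JMJD3, against 75.4% of all genes with Smad3. Among coding genes named in the lists the shares were 75.1% for Smad3, 59.1% for JMJD3, 57.2% for both, 17.9% for Smad3 alone, 1.93% for JMJD3 alone and 23% for neither, and 76.2% of those with Smad3 had JMJD3. As a group the members were within a few percentage points of other named genes. Counted out of all 79 matching coding genes in RefSeq, named in the lists or not, the member shares were 72.2%, 55.7% and 54.4% for Smad3, JMJD3 and both, against 55%, 43.3% and 41.9% of all coding genes. Shares differed between families, which hold 1 to 13 genes each, as the plot of promoter peaks by subfamily shows. Whether they differ by more than such small families would was not tested.

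**Figure D1:**
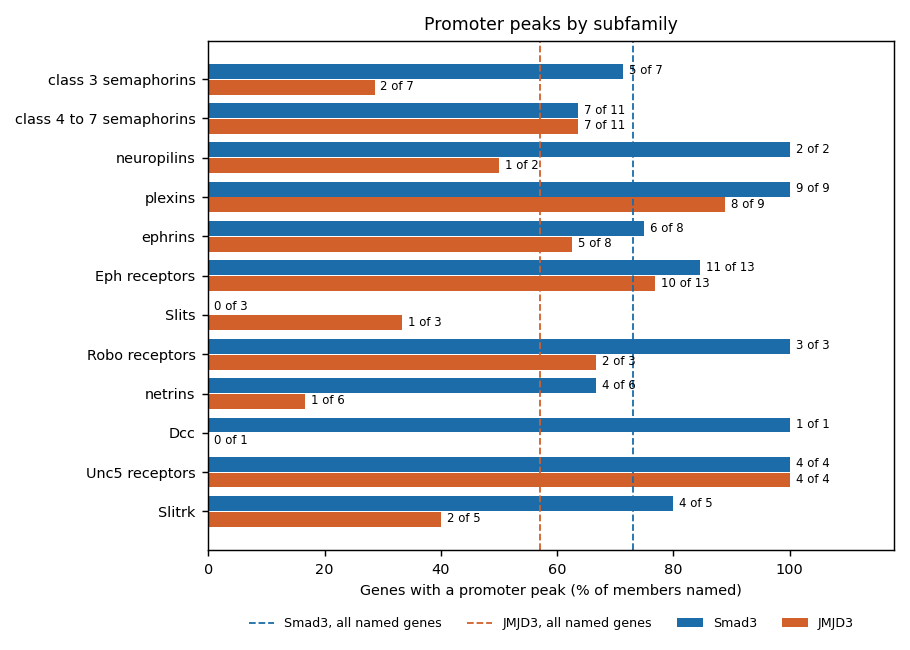
Share of the named genes of each subfamily with a promoter peak of Smad3 (blue) or JMJD3 (orange), in percent, with the gene counts at the bars and dashed lines at 73.1% and 57.1% for all named genes. All 9 plexins and all 4 Unc5 receptors had Smad3, while 0 of 3 Slits did.

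Receptors were marked more often than ligands. Of 32 receptors, 30 (93.8%) had a Smad3 promoter peak and 25 (78.1%) a JMJD3 promoter peak, and the same 25 had both. Of 35 ligands, 22 (62.9%) had Smad3, 16 (45.7%) had JMJD3 and 15 (42.9%) had both. Over all genes these shares were 73.1%, 57.1% and 55.1%, between those of ligands and receptors. The sorting into ligands and receptors was made with the results of these data known and was not tested. With a 5000 bp window 30 ligands (85.7%) and 31 receptors (96.9%) had Smad3, against 80.6% of all genes. JMJD3 was then at 23 ligands (65.7%) and 27 receptors (84.4%), against 63.9%. With equal numbers of peaks in both lists, 19 ligands (54.3%) and 23 receptors (71.9%) had Smad3, against 62.6%. Limited to the wider 50% of each list's peaks, 16 ligands (45.7%) and 20 receptors (62.5%) had a Smad3 promoter peak, against 53.4% of all genes. A JMJD3 promoter peak was then found at 9 ligands (25.7%) and 14 receptors (43.8%), against 37.6%. Within the ligands, the 14 secreted ones (class 3 semaphorins, Slits, Ntn1, Ntn3, Ntn4 and Ntn5) had Smad3 at 8 promoters (57.1%) and JMJD3 at 4 (28.6%). The 21 that stay attached to the membrane had 14 (66.7%) and 12 (57.1%), against 73.1% and 57.1% of all genes. This last split was chosen after the values were seen.

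Among the class 3 semaphorins, secreted repellents and attractants that signal through neuropilins, 5 of 7 promoters had Smad3 and 2 had JMJD3. In percent this was 71.4% and 28.6%, against 73.1% and 57.1% of all genes. Sema3f, a repellent that acts through Nrp2, had 631 bp (chr9:107611861-107612491) of Smad3 and 550 bp of JMJD3, both downstream of the start. Sema3c, an attractant for cortical axons, had 330 bp of Smad3 and 700 bp of JMJD3 (chr5:17080031-17080730). Sema3a, Sema3d and Sema3g had Smad3 alone. At Sema3a, the founding collapse factor for growth cones, 3 Smad3 peaks lay at -31, 559 and 954 bp, and the widest region was 611 bp (chr5:13398971-13399581). Its nearest JMJD3 peak had its midpoint at 1209 bp, just outside the promoter window, and overlapped the Smad3 peak at 954 bp. The widest Smad3 regions of Sema3d and Sema3g, which also bind neuropilins, were 500 bp (chr5:12383691-12384190) and 350 bp (chr14:32030951-32031300), and no JMJD3 peak named Sema3g at all. Sema3b and Sema3e, the latter a ligand of Plxnd1 that needs no neuropilin, had no promoter peak of either protein.

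The membrane-attached semaphorins of classes 4 to 7 had both proteins or neither. Both were present at 7 of 11 promoters (63.6%, against 55.1% of all genes), those of Sema4b, Sema4c, Sema5b, Sema6a, Sema6b, Sema6d and Sema7a. Sema4a, Sema4d, Sema4f and Sema6c had no promoter peak (36.4%, against 25%). Sema4c, a ligand of Plxnb2, had the widest promoter region of any member for each protein. Its Smad3 region ran over 2900 bp (chr1:36612541-36615440), from -214 to 2685 relative to the start, and its JMJD3 region over 2780 bp (chr1:36612681-36615460). Of the 7 Smad3 peaks that named Sema4c, 2 had their midpoint in the promoter window and 5 beyond it, but all were part of this region, and no separate distal region of either protein named the gene. Sema6a, a ligand of Plxna2 and Plxna4, had 1330 bp of Smad3 and 1520 bp of JMJD3 (chr18:47528311-47529830). Sema6d, a ligand of Plxna1, had 881 bp (chr2:124435621-124436501) and 1400 bp. Sema4d, the ligand of Plxnb1, lay just outside the window, with its nearest Smad3 peak at 1062 bp and its nearest JMJD3 peak at 1232 bp.

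The neuropilins and plexins, which form the semaphorin receptors, carried Smad3 throughout. Nrp1, the co-receptor for Sema3a and for VEGF, had 1011 bp (chr8:130882631-130883641) of Smad3 and 2540 bp of JMJD3 (chr8:130880881-130883420) that extended upstream to -2091. Nrp2, the co-receptor for Sema3f, had 3 Smad3 promoter peaks and a widest region of 710 bp (chr1:62749601-62750310), and no JMJD3 promoter peak. All 9 plexins had Smad3 and 8 (88.9%) had JMJD3, against 73.1% and 57.1% of all genes. Plxnd1 had 1200 bp of Smad3 and 2000 bp of JMJD3 (chr6:115943701-115945700), Plxnb1 had 1170 and 1291 bp, and Plxnb2 had 1121 and 1200 bp. At Plxna2, a neuropilin partner and receptor of Sema6a, the Smad3 region was 950 bp (chr1:196445611-196446560) and the JMJD3 region 1910 bp (chr1:196445661-196447570). The JMJD3 region thus ran further into the gene, to 1548 bp. Plxna3, a partner of Nrp2, had a Smad3 region of 921 bp (chrX:71573761-71574681) and was not named by any JMJD3 peak. At Plxnb3 the widest promoter regions lay apart, with Smad3 from -740 to -301 and JMJD3 from 620 to 2339 relative to the start. A distal Smad3 region of the gene, at 1737 bp, did meet JMJD3.

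**Figure D2:**
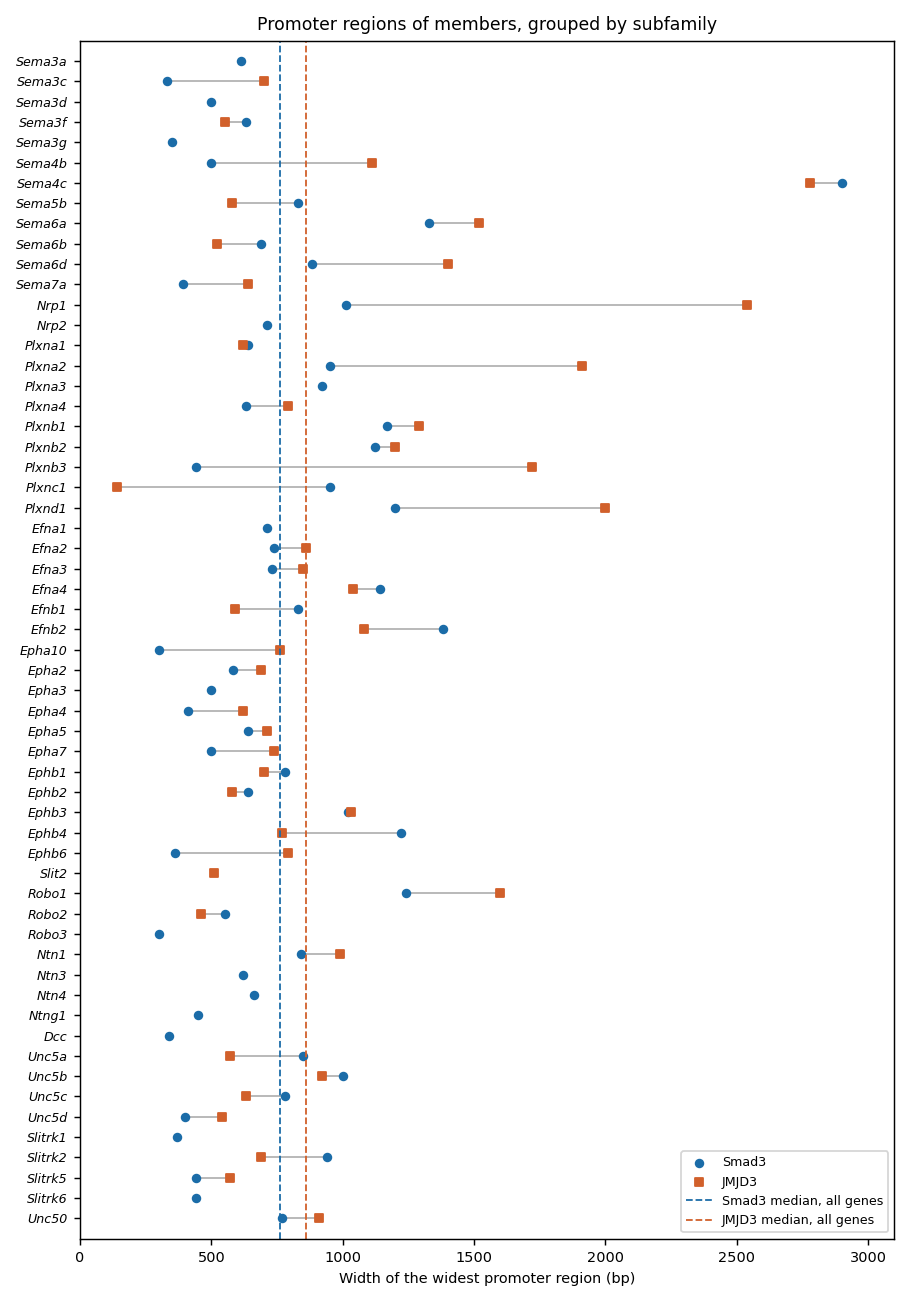
Width in bp of the widest Smad3 (blue circles) and JMJD3 (orange squares) promoter region of each member with a promoter peak, grouped by subfamily, with lines joining the values of 1 gene and dashed lines at the medians of all genes, 760 bp and 860 bp. Sema4c lies at 2900 and 2780 bp, and Nrp1 shows a JMJD3 region of 2540 bp beside a Smad3 region of 1011 bp.

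Ephrins, the membrane-bound ligands of Eph receptors, had Smad3 at 6 of 8 promoters and JMJD3 at 5. Their shares of 75% and 62.5% were near the 73.1% and 57.1% of all genes. Efnb2, which also signals back into its own cell and marks arteries, had 1380 bp (chr8:8660911-8662290) of Smad3 and 1080 bp of JMJD3, both wholly upstream of the listed start. Efna4 had 1140 bp of Smad3 and 1040 bp of JMJD3 (chr3:89141461-89142500), Efna2 had 740 and 860 bp, and Efnb1 had 830 bp (chrX:96330991-96331820) and 590 bp. Efna1, a ligand of Epha2, had 3 Smad3 promoter peaks, a widest region of 711 bp (chr3:89083321-89084031) and no JMJD3 promoter peak. Efna5, a repellent that patterns topographic maps, and Efnb3, a midline barrier in the spinal cord, had no promoter peak.

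Eph receptors are receptor tyrosine kinases, and 11 of 13 had Smad3 and 10 had JMJD3 at the promoter. That is 84.6% and 76.9%, against 73.1% and 57.1% of all genes. All 5 EphB genes had both proteins, whereas 6 of 8 EphA genes (75%) had Smad3 and 5 (62.5%) had JMJD3. Ephb3 had regions of 1020 bp for Smad3 (chr16:21204231-21205250) and 1030 bp for JMJD3, Ephb4 had 1220 and 770 bp, and Epha5 had 640 and 710 bp. At Epha4, a receptor for ephrins of both classes, a Smad3 region of 410 bp (chr1:77511501-77511910) overlapped the narrower of its JMJD3 promoter regions, of 470 bp (chr1:77511521-77511990), and lay beside the wider, of 620 bp (chr1:77510871-77511490). Epha10, whose kinase domain is inactive, had a Smad3 region of 300 bp and JMJD3 over 760 bp that did not meet. Epha3 had a Smad3 region of 500 bp (chr16:63863811-63864310) and no JMJD3 promoter peak, and Epha1 and Epha8 had neither.

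The Slit ligands and their Robo receptors were marked differently within 1000 bp of the start. Smad3 was at 0 of 3 Slit promoters and at 3 of 3 Robo promoters, against 73.1% of all genes. Slit2, a midline repellent, had a JMJD3 region of 510 bp (chr5:48374161-48374670), from -232 to 277 relative to the start, and no Smad3 promoter peak. Slit1 and Slit3 had no promoter peak, with their nearest Smad3 peaks at -2305 and -1890 bp. With a 2500 bp window both would count as having Smad3, so the difference depends on the window. Robo1 had broad regions of 1241 bp for Smad3 (chr16:72663051-72664291) and 1600 bp for JMJD3 (chr16:72662831-72664430). Robo2 had 551 and 460 bp, both upstream of the listed start, and its nearest JMJD3 peak, at -883 bp, was among the closest to the edge of the window. Robo3, which lets commissural axons cross the midline, had a Smad3 region of 300 bp (chr9:37239681-37239980) whose midpoint at 929 bp was just inside the window, and its nearest JMJD3 peak was at 2374 bp.

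Netrins had Smad3 at 4 of 6 promoters (66.7%, against 73.1% of all genes) and JMJD3 at 1 (16.7%, against 57.1%). Ntn1, the classical attractant for commissural axons, had both, with 841 bp of Smad3 (chr11:68200191-68201031) and 990 bp of JMJD3. Ntn3, Ntn4, a basement membrane component, and Ntng1, a membrane-anchored netrin, had Smad3 regions of 620, 661 and 450 bp and no JMJD3 promoter peak. Ntn4 had 5 Smad3 promoter peaks spread from -471 to 840 bp (widest region chr10:93103211-93103871), and no JMJD3 peak named Ntn3 or Ntn4 anywhere. A peak names its closest start, and for Ntn4 this holds over only 38.1 kb, while its listed transcript is 105 kb. Peaks further into that transcript would name another gene. Dcc, the receptor for attraction and a single gene, had a Smad3 region of 340 bp (chr18:72510681-72511020), from -297 to 42, and its nearest JMJD3 peak was at 9007 bp. All 4 Unc5 receptors, which mediate repulsion, had both proteins, against 55.1% of all genes. For Unc5a, Unc5b, Unc5c and Unc5d the Smad3 widths were 850, 1000, 780 and 400 bp. Their JMJD3 widths were 570, 920, 630 and 540 bp. The Unc5b regions lay at chr10:60293931-60294930 for Smad3 and chr10:60293901-60294820 for JMJD3.

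The Slitrk genes encode synaptic adhesion proteins that resemble Slits in their leucine-rich repeats. Smad3 was at 4 of 5 (80%, against 73.1% of all genes) and JMJD3 at 2 (40%, against 57.1%). Slitrk2 had regions of 940 and 690 bp and Slitrk5 of 440 and 570 bp. Slitrk1 and Slitrk6 had Smad3 regions of 370 bp (chr14:109312921-109313290) and 440 bp (chr14:111154261-111154700) and no JMJD3 promoter peak, and Slitrk3 had neither. Unc50 had both, at 770 and 910 bp, and Unc5cl had neither.

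The 14 members with Smad3 alone thus came from 9 of the 12 subfamilies. Counting promoter peaks by coordinate, whichever gene they name, left each class as it was, but a peak names its closest start, so little could change. Peaks with midpoints outside the window still touched it for JMJD3 at Sema3a and for both proteins at Sema4d. Of these 14 members, 10 had distal JMJD3 regions, and Sema3g, Plxna3, Ntn3 and Ntn4 had none. Only 22.2, 20.3, 7.60 and 38.1 kb of genome lay closest to the starts of the latter, against a median of 185 kb for members. Few peaks could therefore name them, although Efna1, with 26.8 kb, had 2 distal JMJD3 regions. The Smad3 list is the longer of the lists, and whether JMJD3 at these promoters fell under the calling threshold cannot be read from them. With all peaks, 15 members (20.3%, against 19.9% of all genes) had a promoter peak of 1 protein only, and with equal numbers of peaks in both lists 18 had (24.3%, against 18.3%).

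Over all members the widest promoter regions had a median of 690 bp for Smad3 (95% interval of the median 611 to 830 bp, n = 57) and 765 bp for JMJD3 (690 to 920 bp, n = 44), against 760 and 860 bp over all genes. These intervals treat genes as draws and cover no library error. Smad3 regions of 10 members (17.5%) and JMJD3 regions of 10 members (22.7%) were in the widest 25% of all genes' regions by width, where all genes had 25.6% and 25.3% because of ties. The JMJD3 regions of Sema4c, Nrp1, Plxnd1, Plxna2, Plxnb3, Robo1 and Sema6a, at 1520 to 2780 bp, were the 7 widest. The widest Smad3 region covered the start at 43 of 57 members (75.4%, against 84.6% of all genes), and the widest JMJD3 region at 35 of 44 (79.5%, against 89.5%). At Efnb2, Plxnc1, Robo2 and Slitrk5 both widest regions lay wholly upstream of the listed start, and at Sema3f and Sema5b both lay wholly downstream. For Efnb2, Plxnc1, Robo2 and Slitrk5 the nearest RefSeq start was 469, 288, 912 and 912 bp from the listed one, allowing for the shift of neighbouring genes. For Sema5b it was 1 bp away. The part that the choice of start plays in these positions was not tested. A narrower Smad3 region covered the start at Plxnc1 (460 bp) and at Sema5b (730 bp). Of the 43 members with both proteins, the widest regions met at 40, and the exceptions were Plxnb3, Epha4 and Epha10. The JMJD3 region was the wider at 26 and the Smad3 region at 17 (39.5%, against 41.2% of all genes with both).

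Of the Smad3 peaks at member promoters, 62.9% overlapped a JMJD3 peak by at least 1 bp (exact Clopper-Pearson 95% interval 53.8% to 71.4%, 78 of 124 peaks), against 70.9% over all promoter Smad3 peaks. Of the JMJD3 promoter peaks, 88.9% overlapped Smad3 (80.0% to 94.8%, 72 of 81), against 93.4%. At distal sites the shares were 58.2% for Smad3 (54.7% to 61.7%, against 56.6%) and 76.5% for JMJD3 (72.7% to 80.0%, against 77.3%). The intervals cover counting error only. Among all genes overlap was more frequent at promoters than at distal sites, and for members the promoter and distal intervals overlapped for Smad3 and met at 80.0% for JMJD3. In the stretch from 1 to 10 kb around member starts, 42.8% of Smad3 peaks overlapped JMJD3 (35.0% to 50.8%, n = 159), against 50.1% for all genes.

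Peaks of guidance genes lay at promoters less often than those of all genes. At the promoter were 13.6% of member Smad3 peaks and 13.0% of JMJD3 peaks, against 25.4% and 25.2% over all genes. Peaks within the gene made up 42.9% and 41.9% of member peaks, against 27.3% and 26.6%, and peaks beyond 200 kb from the start made up 20.3% and 25.1%, against 7.14% and 8.41%. Joined into regions, members had 608 distal Smad3 regions, of which 210 were upstream, 297 within the gene and 101 past its end, and 401 distal JMJD3 regions, of which 139, 189 and 73 fell in these places. The median member had 5 distal Smad3 and 2.5 distal JMJD3 regions, against 1 and 1 over all genes. With the wider 50% of peaks these medians fell to 1 and 1 for members, against 0 and 0, and with equal numbers of peaks the Smad3 median was 2, against 1. At least 1 distal Smad3 region named 67 members, against 72.3% of all genes, and at least 1 distal JMJD3 region named 62, against 60.2%. At least 10 distal Smad3 regions named 19 members (25.7%, against 8.91%), and at least 10 distal JMJD3 regions named 13 (17.6%, against 4.41%). With the wider 50% of peaks these were 4 members (5.41%, against 1.18%) and 2 members (2.7%, against 0.426%).

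**Figure D3:**
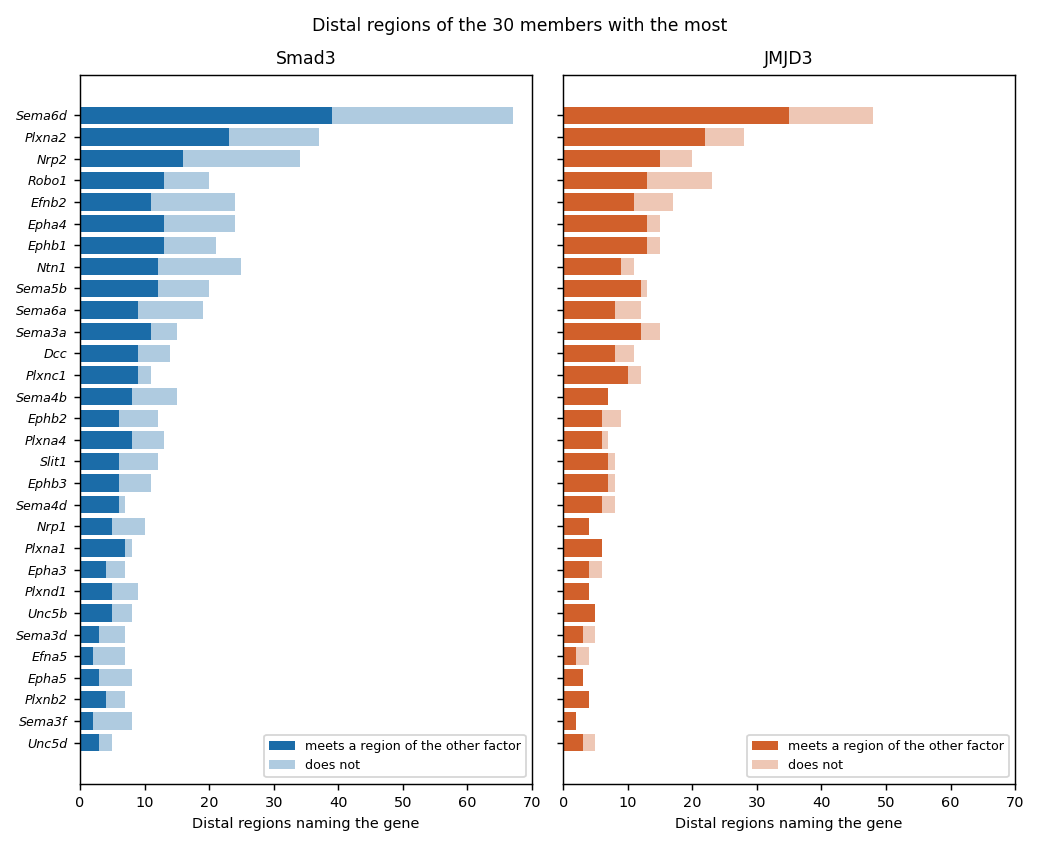
Number of distal Smad3 (left) and JMJD3 (right) regions of the 30 members with the most, with the darker part of each bar for regions that meet a region of the other protein. Sema6d leads both panels with 67 and 48 regions, followed by Plxna2 with 37 and 28.

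Many of these genes are long and lie in gene-poor stretches, and a peak names its closest start. The stretch of genome nearer to a gene's start than to any other named start had a median of 185 kb for members, against 64.1 kb for all genes. Per 100 kb of that stretch the median was 2.88 distal Smad3 regions for members, against 2.01, and 1.44 distal JMJD3 regions, against 0.902. By these medians, members were above all genes by a smaller factor per length than per gene. A median weighs each gene alike whatever its stretch, and density pooled over the summed stretches was not compared. The receptors had a median stretch of 353 kb and the ligands one of 64.0 kb, while the medians per 100 kb were 3.27 and 5.87 for Smad3 and 2.36 and 2.13 for JMJD3. The part that length plays in the counts was not tested further.

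**Figure D4:**
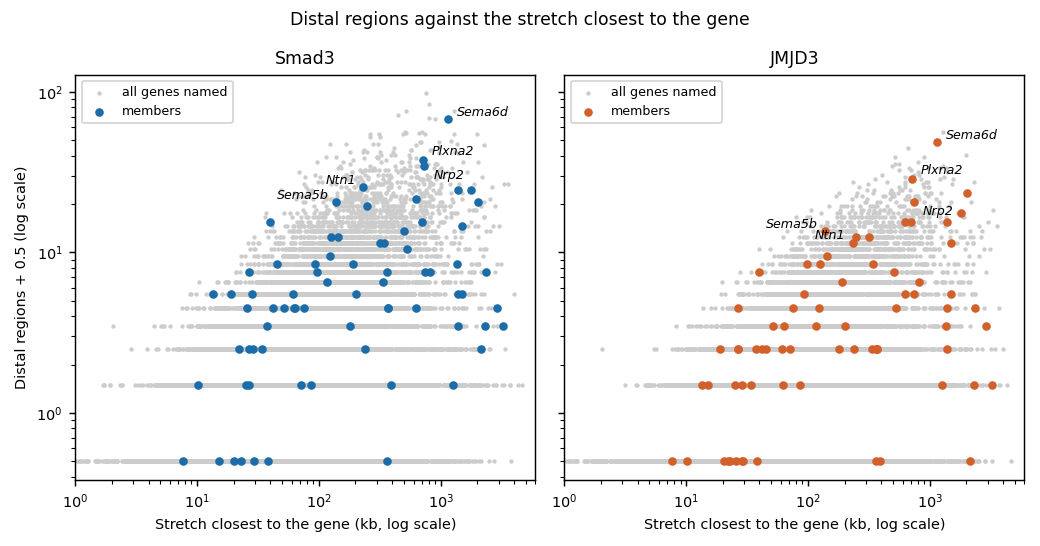
Distal regions of each gene plus 0.5 (log scale) against the stretch of genome closest to its start in kb (log scale), for Smad3 (left) and JMJD3 (right), with members in colour and all named genes in grey. Sema6d and Plxna2 have many regions on long stretches, while Sema5b has 20 Smad3 regions on 139 kb.

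Sema6d had the most distal regions of any member, 67 for Smad3, ranking 7 among the 16428 genes, and 48 for JMJD3, ranking 2. Of these, 39 and 35 met a region of the other protein. Its stretch of 1143 kb is long, and with 5.86 Smad3 regions per 100 kb it stood at percentile 78.4 of all genes. The files place its start at a transcript of 57.5 kb, while the RefSeq gene spans 578 kb, so that regions counted as upstream of Sema6d can lie within longer transcripts. The same holds for Sema3a (203 kb listed, 479 kb in RefSeq), Robo1 (383 and 1020 kb) and Robo2 (519 and 1555 kb). Plxna2 had 37 Smad3 and 28 JMJD3 distal regions, 20 and 15 of them upstream and 17 and 13 within the gene. Nrp2, which lacked JMJD3 at the promoter, had 34 Smad3 and 20 JMJD3 distal regions, of which 16 and 15 met the other protein. Efnb2 had 24 and 17, mostly past the end of the gene, where 18 Smad3 and 16 JMJD3 regions lay. Robo1 was the only one of these leading genes with more JMJD3 than Smad3 distal regions, 23 against 20.

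**Figure D5:**
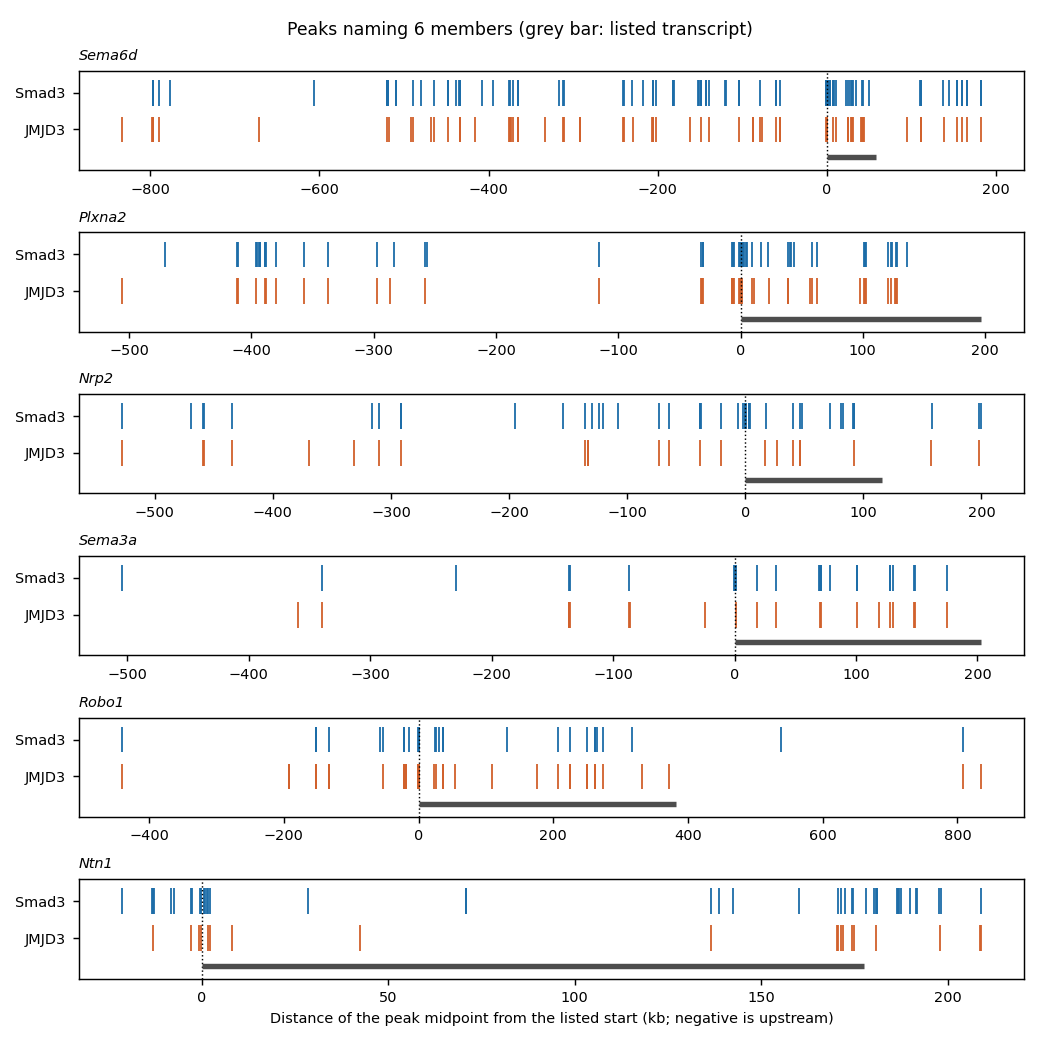
Smad3 (blue) and JMJD3 (orange) peaks that name Sema6d, Plxna2, Nrp2, Sema3a, Robo1 and Ntn1, by distance of the midpoint from the listed start in kb, negative being upstream, with the listed transcript as a grey bar. At Nrp2 the Smad3 peaks cluster at the start where JMJD3 has none, and at Ntn1 both proteins gather near and past the end of the listed transcript.

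Ntn1 and Sema5b were dense as well as rich. Ntn1 had 25 Smad3 and 11 JMJD3 distal regions, and its 10.7 Smad3 regions per 100 kb put it at percentile 91.4 of all genes. Sema5b, a transmembrane semaphorin with thrombospondin repeats, had 20 Smad3 and 13 JMJD3 distal regions, all within the gene, and its 14.4 Smad3 regions per 100 kb put it at percentile 95.3. Epha4 had 24 and 15 distal regions and Ephb1 21 and 15. Dcc had 14 Smad3 and 11 JMJD3 distal regions, although its promoter had Smad3 alone, and Sema3a had 15 of each. Slit1, without a promoter peak, had 12 Smad3 and 8 JMJD3 distal regions, 11 and 7 of them within the gene, whereas Slit2 had 1 of each.

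The widest distal region of a member lay upstream of Sema3b, a gene without a promoter peak. It was a Smad3 region of 1980 bp (chr9:107513881-107515860) whose peak nearest the start had its midpoint at -2514 bp, and it met a JMJD3 region of 1850 bp (chr9:107513981-107515830). Within Ntn1, 170372 bp from the start, a JMJD3 region of 1960 bp (chr11:68028191-68030150) met a Smad3 region of 1110 bp. Within Plxna2 a Smad3 region of 1490 bp (chr1:196572441-196573930) met a JMJD3 region of 1340 bp. Sema4b, with a listed transcript of 39.7 kb, held Smad3 regions of 1480 bp (chr7:87333391-87334870) and 1471 bp (chr7:87342331-87343801) and a JMJD3 region of 1641 bp (chr7:87338321-87339961). A JMJD3 region of 1770 bp lay within Plxna4 (chr6:32346631-32348400). Sema6d had a Smad3 region of 1400 bp past the end of its listed transcript (chr2:124546051-124547450) and a JMJD3 region of 1750 bp upstream (chr2:124194821-124196570). All of these met a region of the other protein.

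All 16 members without a promoter peak had a distal region of at least 1 protein, and 13 had distal regions of both. Members with no distal Smad3 region were Sema4c, Plxna3, Efnb3, Ephb6, Ntn3, Ntn4 and Unc50. Of these 7 members, Sema4c, Plxna3, Ephb6, Ntn3, Ntn4 and Unc50 had a Smad3 promoter peak, and at Plxna3, Ephb6, Ntn3, Ntn4 and Unc50 every Smad3 peak naming the gene was a promoter peak. In all, 12 members had no distal JMJD3 region.

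Of 14 other guidance cues and co-receptors named in the lists, 11 (78.6%) had Smad3 and 5 (35.7%) had JMJD3 at the promoter, against 73.1% and 57.1% of all genes. The 5 with both were Neo1, a netrin and Rgm receptor related to Dcc, its ligands Rgma and Rgmb, and the adhesion molecules Chl1 and Nrcam. Among these cues, Dscam, a netrin receptor, had a Smad3 region of 880 bp and no JMJD3 promoter peak, as at Dcc.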

How the data were processed

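Peak positions were analysed from the deposited lists of 1 Smad3 and 1 JMJD3 library. Per the file headers, each entry holds the peak's start and end in bp, the signed distance to the closest transcription start, and that transcript's position, symbol and Entrez ID. Per the submitters' processing notes, the tools were CASAVA, Bowtie 0.12.7 and MACS 1.4 and the build mm9. No threshold, nor the use of the input, is stated in them. Peaks were listed per library. No score, fold or read number is in the deposited files, so width replaced the peak score that had been planned, which tracks enrichment only loosely.

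A gene had a promoter peak when a peak naming it had its midpoint within 1000 bp of the start. Peaks of 1 list whose start lay at most 10 bp after the previous end were joined, giving 70562 Smad3 and 45018 JMJD3 regions. Overlap meant at least 1 shared bp. Each gene's stretch ran between the halfway points to the neighbouring named starts. Counts and medians stand beside the same over all named genes. The joining and overlap steps were tested on simulated peaks. No test over samples was run.

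RefSeq tables of GRCm38.p6 gave promoter sequences, gene lengths and coding status, matched on Entrez ID for all 74 members, and no position was converted between builds. Of the members, 64 had a promoter window, and 52 had one starting at the listed start within 100 bp once the shift of neighbouring genes was allowed for.

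Members and gene lists were chosen with earlier results of these data known. A further list of pathway genes is not reported here. Named in full were, per subfamily, up to 3 members with both proteins, ranked by the lower of their width percentiles, all members with 1 protein only, the 5 members with the most distal regions, the 5 widest distal regions, and 12 genes always included. Other genes named were chosen after their values were seen. Alternatives covered the window, the overlap rule, joining, stricter lists and the set of members. The input library was not analysed here. Python 3.11.15, pandas 2.3.3, NumPy 2.4.6, SciPy 1.17.1 and matplotlib 3.10.9 were used.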

Additional observations from a re-analysis of the deposited data

How the results depend on the processing

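Of 87 values recomputed under alternatives for 12 results, 65 stayed within the limits set for a match and 22 moved. Some matches were fixed in advance, so the tally does not measure stability. Counting out of all 79 matching coding genes kept the member counts at 57, 44, 43 and 15 by construction. Equal numbers of peaks left the shorter JMJD3 list as it was, with 44 members and a median of 2.5 distal regions. The limits for counts were also wide. A fall from 57 to 38 members with Smad3, under the wider 50% of peaks, was scored as a match. Overlap shares depended most on the rule. With reciprocal overlap of at least 50%, the overlapping share was 41.1% of promoter and 36.7% of distal Smad3 peaks, and 63.0% of promoter and 53.5% of distal JMJD3 peaks. With midpoints within 200 bp the same shares were 45.2%, 47.3%, 72.8% and 67.6%. With a 5000 bp window the promoter Smad3 share was 53.6%. With the wider 50% of the peaks of each list, 24 members (32.4%, against 37.6% of all genes) had a JMJD3 promoter peak, 19 (25.7%, against 33.7%) had both and 24 (32.4%, against 23.6%) had 1 protein only. There the distal shares were 52.1% for Smad3 and 68.5% for JMJD3, and the median member had 1 distal region of each. With equal numbers of peaks the distal shares were 75.2% for Smad3 and 57.0% for JMJD3, and the median member had 2 distal Smad3 regions. Without joining, the median promoter widths were 451 and 565.5 bp, and joining peaks up to 500 bp apart gave 921 bp for Smad3. Fewer peaks and narrower regions follow from how these alternatives are built, and other causes were not tested.

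Counting peaks by coordinate and leaving out the Slitrk genes, Unc5cl and Unc50 were alternatives chosen after seeing the data, and neither moved a count by over 1.5 times. No paired analysis was possible because each protein had 1 library. The same limit leaves library error unknown, and a missing peak can be one under the calling threshold.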
